A study of Caenorhabditis elegans with 2 samples.

Results

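The mir-51 family of Caenorhabditis elegans consists of 6 microRNA genes, mir-51 to mir-56, out of 261 microRNA genes annotated on the nuclear chromosomes. The genes were taken by name, and they had been chosen because peaks of a transcription factor ChIP-seq experiment were known to lie near some of them. For each gene, every peak whose summit lay within 2000 bp of the annotated hairpin was collected from 4 deposited peak lists, with its signal, its rank and the place of its summit. Counts and ranks below describe the peaks that led to the choice, so no test is attached to them.

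MicroRNAs are short RNAs cut from hairpin precursors, and they guide Argonaute proteins to messenger RNAs that pair with the seed, the bases near their 5′ end. Members of the mir-51 family carry the seed of the miR-100 microRNAs of other animals. In C. elegans the family is known to be needed for embryonic development, including attachment of the pharynx, where the cadherin gene cdh-3 is a known target.

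The chromatin came from whole early embryos aged 2 hours, of pooled sex and obtained by bleaching, of strain OP756. This strain has the genotype unc-119(tm4063) and carries wgIs756, a transgene of ceh-13 fused to TY1, EGFP and 3xFLAG together with a working unc-119 gene. CEH-13 is a transcription factor with a homeodomain, the worm's Hox protein of the labial class, and the tagged form was precipitated with an antibody to GFP. There was 1 group of 2 biological replicates and no second condition.

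Each replicate list held 30000 peaks, as did the list called on the pooled replicates. The list that passed the irreproducible discovery rate (IDR) step, which compares the replicates, held 512. One control alignment served for every list, so the replicates are not independent in that respect. The signal is the authors' score per peak, of unstated scale, so peaks are compared by rank within a list, with rank 1 the strongest. The weakest IDR peak had signal 86.2, as did the pooled peak of rank 513, so the IDR list corresponds to the strongest 512 pooled peaks. A place in it therefore does not mean that a single peak was alike in both replicates. The IDR peak near mir-1824, for example, had ranks of 1245 and 301 in the replicates. The q-value of a peak is its false discovery rate as deposited, and it was under 0.05 for 1380 peaks in replicate 1, for 1082 in replicate 2 and for 1146 after pooling. No read numbers are in the lists, so the depth is unknown. Positions are on the ce11 build.

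The 6 genes lie at 3 places. mir-51 (WBGene00003279) is on the minus strand of chromosome IV at 11026013 to 11026112, and mir-53 (WBGene00003281) is on the same strand at 11027593 to 11027691, 1481 bp away. mir-52 (WBGene00003280) is on the plus strand of chromosome IV at 14034008 to 14034107. On chromosome X, mir-54 (WBGene00003282, 13144996 to 13145094), mir-55 (WBGene00003283, 13144827 to 13144924) and mir-56 (WBGene00003284, 13144691 to 13144787) follow each other on the minus strand, 72 and 40 bp apart. This cluster lies in an intron of the protein-coding gene F09A5.3, which is on the opposite strand, and the antisense microRNA gene mir-55b is annotated over mir-55. The hairpins of mir-51, mir-52 and mir-53 are in no protein-coding gene.

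The mature sequences show what makes these genes a family. They are given 5′ to 3′ with the seed, bases 2 to 8, in capitals, as read from the RefSeq genome sequence at the annotated positions.
mir-51 family arm: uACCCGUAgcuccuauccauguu
mir-52 family arm: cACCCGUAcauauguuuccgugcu
mir-53 family arm: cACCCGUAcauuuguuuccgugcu
mir-54 family arm: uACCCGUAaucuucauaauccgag
mir-55 family arm: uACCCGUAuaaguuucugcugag
mir-56 family arm: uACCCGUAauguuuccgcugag

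All 6 family arms share the seed, and beyond it no further base in a row is common to all. Among 458 annotated mature arms of the worm, 6 carry this seed, and all 6 are those of the family. The arm sits on the 5′ side of the hairpin in mir-51, mir-52 and mir-53 and on the 3′ side in the chromosome X cluster. Over the 15 pairs of members, identity ranged from 55.2% to 95.8% for the family arm, from 36.7% to 72.7% for the other arm and from 45.1% to 79% for the whole hairpin. mir-52 and mir-53, which lie at different places, were the most alike in the family arm (95.8%) and in the hairpin (79%). The other arms had 6 different seeds.

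Peaks in the IDR list lay within 2000 bp of 3 of the 6 members, mir-51, mir-52 and mir-53. Of the 255 microRNA genes outside the family, 13 had one (5.10%), and 1.92% of the nuclear genome lies that near to an IDR summit. The 3 members share 2 distinct peaks, since the peak counted for mir-53 is the peak of mir-51, 1432 bp away. Within 500 bp, 2 of 6 members had an IDR peak, mir-51 and mir-52, against 1 of 255 other microRNA genes (0.392%). Over all protein-coding genes, 2.77% had an IDR summit within 2000 bp of the 5′ end. The members were chosen on this readout, so these shares are given as a description.

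The same 3 members had a peak among the 512 strongest of each replicate, as did 3.92% of the other microRNA genes. With a q-value under 0.05 as the limit, all 6 members had a pooled peak within 2000 bp, against 11.0% of the others, and all 6 had such a peak in each replicate, against 8.63%. For mir-53 this was again the peak of mir-51. The 6 genes are not 6 independent cases, because neighbours share peaks. Counted as distinct peaks, the 3 places held 11 in the pooled list, of which 5 had a q-value under 0.05. Replicate 1 held 14, of which 4 were under that limit, and replicate 2 held 10, of which 6 were.

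**Figure D1:**
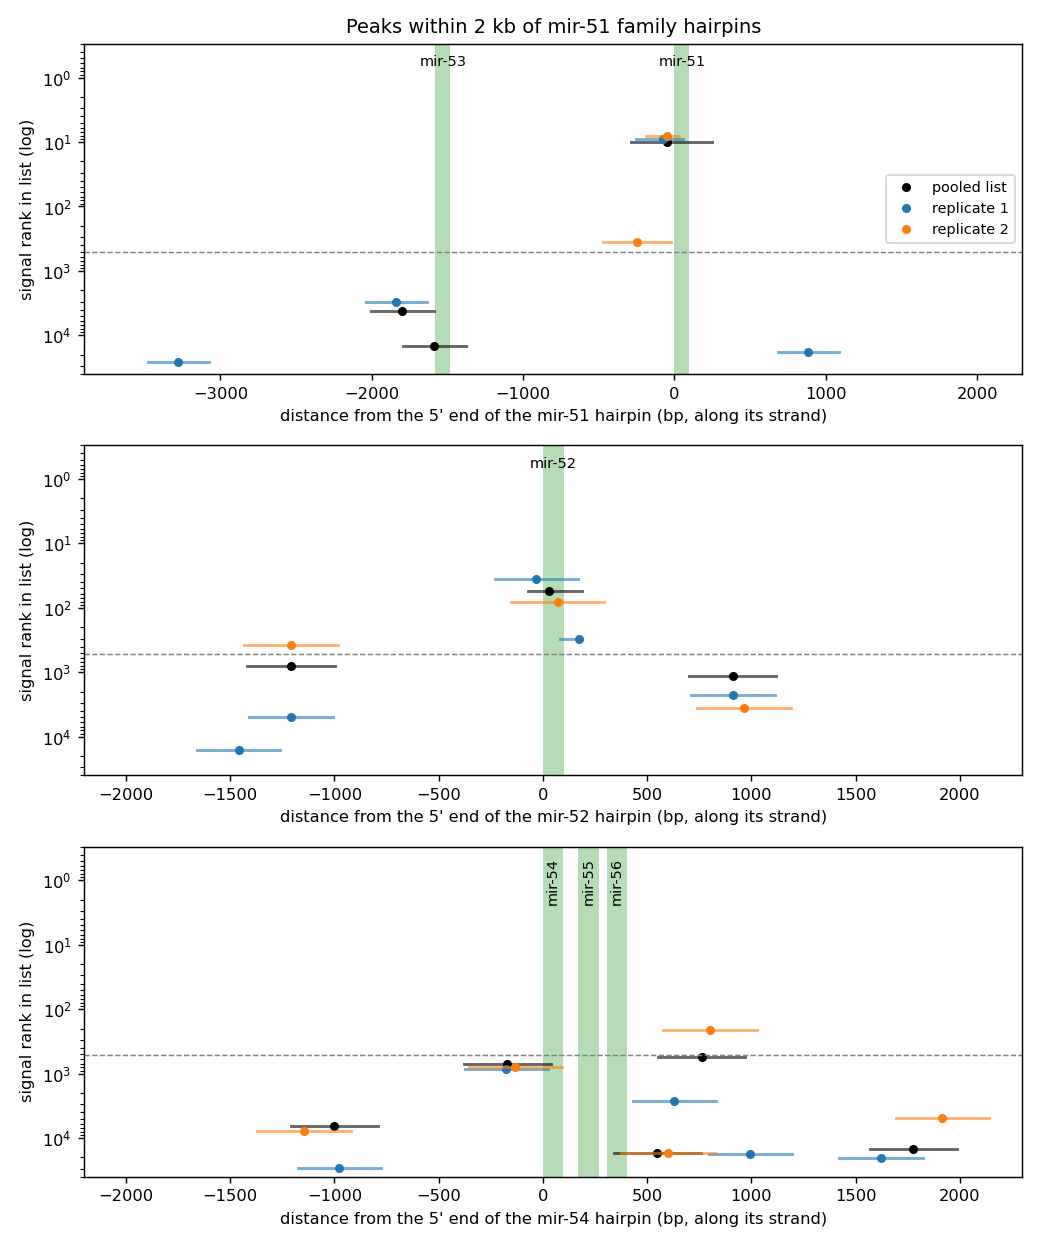
Peaks within 2000 bp of the hairpins at the 3 places of the family. The horizontal axis is the distance in bp from the 5′ end of the mir-51, mir-52 or mir-54 hairpin along its strand, the vertical axis is the signal rank in the list on a log scale with the strongest on top, green bands are hairpins, bars are peak intervals, points are summits, and the dashed line is rank 512. The peaks at mir-51 (ranks 8 to 10) and at mir-52 (ranks 36 to 82) have their summits in or beside the hairpin, while the summits at the chromosome X cluster lie to its sides.

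The strongest peak of the family was at mir-51. Its signal was 463 in the pooled list (rank 10), 275 in replicate 1 (rank 9) and 197 in replicate 2 (rank 8). Both replicates thus placed it among their 10 strongest peaks. The pooled q-value was 0.00135, the lowest value in that list, which 369 peaks share. The pooled peak ran from 11025861 to 11026396 and covered the whole hairpin, but its summit was upstream of it, 49 bp before the 5′ end.

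The replicates agreed closely on that position. The summit was 78 bp upstream in replicate 1 and 50 bp upstream in replicate 2, so the 3 summits fell within 29 bp of each other. The listed interval was 311 bp long in replicate 1, 219 bp in replicate 2 and 536 bp in the pooled list. The median widths of those lists were 400, 450 and 420 bp. Most other peaks near the members had exactly the median width of their list, so the interval is not read as the breadth of the peak. Replicate 2 listed a second, weaker peak 250 bp upstream (signal 46.7, rank 353), which overlaps the first. The summit lies inside F36H1.17, an annotated non-coding RNA gene of 89 bp on the same strand, whose 3′ end is 19 bp from the hairpin.

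The sequence under this summit is shown because it holds both the summit and the start of the microRNA. It runs 100 bp to each side of the pooled summit, chrIV:11026061-11026261, on the minus strand, 5′ to 3′. Capitals mark, from left to right, the reverse complement of CCGCAC, then a match to GTTCNANNC that overlaps the reverse complement of another word, CGAACC.
mir-51 summit window: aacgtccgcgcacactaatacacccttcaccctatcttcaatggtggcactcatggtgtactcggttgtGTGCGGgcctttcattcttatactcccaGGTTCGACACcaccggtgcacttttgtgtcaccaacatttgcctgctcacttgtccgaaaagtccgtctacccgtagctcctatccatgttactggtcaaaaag

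The match to GTTCNANNC begins 2 bp before the summit, within F36H1.17. That sequence is known as the B box, an internal promoter element of tRNA genes, and it was in the same window of 44.9% of IDR peaks and 8.21% of pooled peaks. The genes of tRNAs, snoRNAs and snRNAs lay within 500 bp of 274 of the 512 IDR summits, and among the 238 others the share with the B box was 7.98%. The nearest annotated gene of those classes to mir-51 was the snoRNA gene M7.15, 57035 bp away. Among the 238 peaks away from such genes the mir-51 peak ranked 2 and the mir-52 peak 12. CCGCAC, also in the window, was found in 23.5% of those 238 windows, 14.6% of all IDR windows and 4.79% of pooled windows. The motifs were chosen with earlier results of these data known, so these shares are a description only.

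At mir-52 the summit lay inside the hairpin. The signal was 282 in the pooled list (rank 54), 193 in replicate 1 (rank 36) and 97.2 in replicate 2 (rank 82), with a pooled q-value of 0.00135. The peak was thus high in both replicates, but lower in order than that of mir-51 in every list. The pooled summit was 27 bp past the hairpin's 5′ end. In replicate 1 it was 31 bp upstream and in replicate 2 it was 70 bp downstream of that end, a spread of 101 bp, so its place is less well fixed than at mir-51. Replicate 1 listed a second peak 175 bp past that end (signal 71.6, rank 307).

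The window of the mir-52 peak, chrIV:14033935-14034135 on the plus strand, is shown because the summit base falls within the microRNA itself. Capitals mark the family arm, which begins 11 bp before the summit.
mir-52 summit window: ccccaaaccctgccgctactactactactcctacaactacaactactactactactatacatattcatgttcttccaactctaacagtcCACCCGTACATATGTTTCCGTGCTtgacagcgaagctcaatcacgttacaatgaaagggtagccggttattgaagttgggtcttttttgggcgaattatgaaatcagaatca

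None of the 9 motifs searched was found in this window on either strand. The search covered CTCCGCCC (taken up further on), the GC box GGGCGG, the Hox and PBC composite site TGATNNAT, the homeodomain site TAATTA, the repeat GAGAGA, the B box, the TATA box TATAAA and the words CCGCAC (frequent away from tRNA, snoRNA and snRNA genes) and CGAACC (overlapping the B box). The longest run of bases that the mir-51 and mir-52 windows shared was 9 bp. Their GC content was 50.2% and 42.3%, beside a median of 45.8% over IDR windows. Besides the hairpin, the summit overlaps a non-coding RNA gene of 149 bp on the opposite strand, at 14033942 to 14034090.

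Weaker peaks flanked mir-52 on both sides. The one 1208 bp upstream had signal 72.8 in the pooled list (rank 787), 29.4 in replicate 1 (rank 4870) and 45.2 in replicate 2 (rank 377). Its summit was at the same base in all 3 lists, yet its q-value was 0.35 in replicate 1 and 0.00398 in replicate 2, so the replicates differed in strength and not in place. The one 911 bp downstream of the hairpin's 5′ end had signal 64.1 (rank 1154) and a pooled q-value of 0.0513, with ranks of 2248 and 3539 in the replicates. Within 2000 bp of mir-52 lie 8 genes of piRNAs, the small RNAs of the germ line, and 7 other non-coding RNA genes, the one over the hairpin among them. No piRNA gene lies that near to the other members.

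mir-53 had no strong peak of its own. The nearest pooled summits to it were 218 bp upstream (signal 46.7, rank 4169, q-value 0.348) and 7 bp upstream (signal 32.4, rank 14580, q-value 0.743). Both overlap 1 peak of replicate 1 (signal 33.1, rank 2999), and no peak of replicate 2 overlaps either. When each peak was given only to its nearest hairpin, the best pooled rank was therefore 10 for mir-51 and 4169 for mir-53. The gene of the near-identical mature sequence, mir-52, was at rank 54. The protein-coding gene hrg-5, on the same strand, ends 598 bp from mir-53, and its 5′ end is 1737 bp away. alh-3, on the opposite strand, ends 143 bp beyond mir-51.

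The chromosome X cluster had 2 peaks with a q-value under 0.05 in the pooled list, and neither was in the IDR list, whose weakest peak had rank 512 and signal 86.2. The downstream peak, 454 bp from the 5′ end of mir-56 and 358 bp past its hairpin, had signal 83.8 in the pooled list (rank 554, q-value 0.00269). In replicate 1 it had signal 34.2 (rank 2620, q-value 0.159), and in replicate 2 it had signal 62.4 (rank 209, q-value 0.00227). It was thus strong in replicate 2 and weak in replicate 1, and the 3 summits lay up to 171 bp apart. Both replicate peaks also overlap a weaker pooled peak, 241 bp from the 5′ end of mir-56 (rank 17340), so the match is not to 1 pooled peak alone. The replicate 1 summit, 322 bp from that end, lay between the pooled summits.

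The upstream peak of the cluster was alike in both replicates. It lay 171 bp before mir-54, with signal 75.3 in the pooled list (rank 718, q-value 0.00759), 45.3 in replicate 1 (rank 848, q-value 0.01) and 35.6 in replicate 2 (rank 800, q-value 0.0156). The summits fell within 43 bp of each other, in the non-coding RNA gene F09A5.11. The order of the cluster's peaks therefore depends on the replicate, with the upstream one ahead in replicate 1 and the downstream one ahead in replicate 2. The remaining pooled peaks of the cluster were weak, with ranks of 6617, 15042 and 17340. None was nearest to mir-55.

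**Figure D2:**
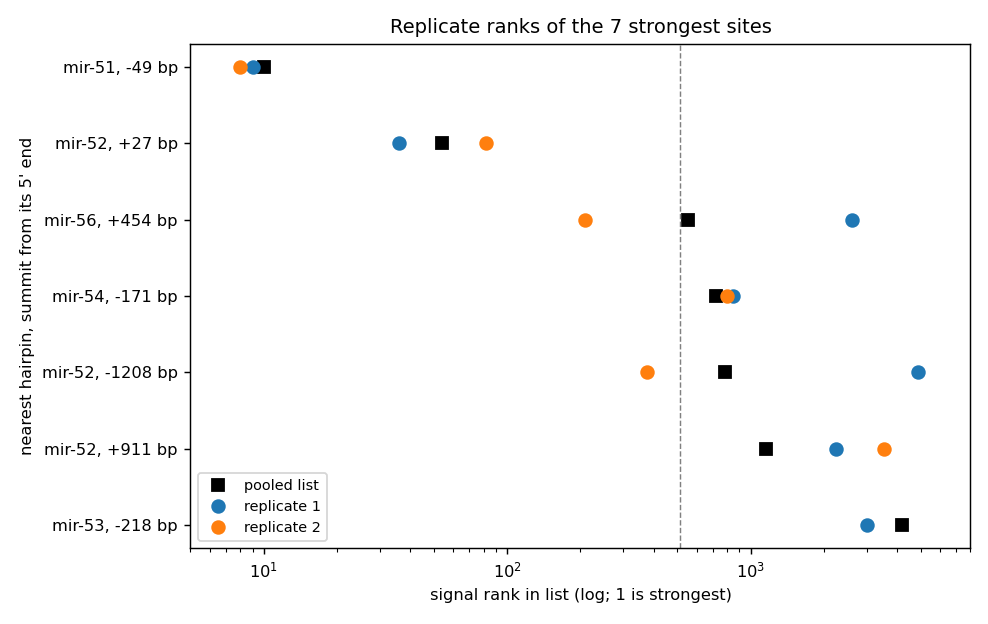
Signal ranks of the 7 strongest sites of the family in the pooled list (squares) and in each replicate (circles). The horizontal axis is the rank on a log scale, the vertical axis names the nearest hairpin and the summit's distance from its 5′ end, and the dashed line is rank 512. The ranks of the mir-51 site and of the site upstream of mir-54 lie close together, whereas the sites 454 bp from mir-56 (209 and 2620) and 1208 bp upstream of mir-52 (377 and 4870) lie far apart.

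The window of the upstream peak, chrX:13145165-13145365 on the minus strand, is shown for the motifs it holds. Capitals mark, from left to right, the reverse complement of CCGCAC, then that of the repeat GAGAGA, then that of the GC box GGGCGG.
mir-54 upstream summit window: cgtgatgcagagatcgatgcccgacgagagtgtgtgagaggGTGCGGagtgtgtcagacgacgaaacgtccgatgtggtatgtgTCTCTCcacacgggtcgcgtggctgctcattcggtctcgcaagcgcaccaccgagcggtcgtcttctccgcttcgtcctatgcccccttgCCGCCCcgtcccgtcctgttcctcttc

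GGGCGG, the GC box, was near 2 of the 5 summits with a pooled q-value under 0.05, this one and the one 1208 bp upstream of mir-52, and was in 15.6% of IDR windows and 6.75% of pooled windows. GAGAGA was near the same 2 summits, in 23.2% of IDR windows and in 14% of pooled windows. The windows of the cluster's peaks with a q-value under 0.05 had a GC content of 62.2% upstream and 59.2% downstream, above the 97.5th percentile of IDR windows (57.7%), and its weaker peaks had 36.8% to 55.7%. The Hox and PBC composite site TGATNNAT and the homeodomain site TAATTA were near none of the 5 summits. In IDR windows they stood at 7.62% and 5.47%, and in pooled windows at 12% and 7.53%.

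CTCCGCCC, a sequence described upstream of nematode microRNA genes, was within 100 bp of none of the 5 summits. It was in 5.08% of IDR windows, 10.5% of those away from tRNA, snoRNA and snRNA genes and 1.63% of pooled windows. In the 1000 bp upstream of the hairpins it was found for mir-52, mir-54, mir-55 and mir-56, 4 of 6 members, against 12.2% of the 255 other microRNA genes. The 3 members of the cluster share 1 copy, so 2 copies exist. GGGCGG, whose reverse complement lies within the longer motif, was in the same stretch of the same 4 members and of 34.5% of the other genes. Besides the copy within CTCCGCCC, 1 more lay upstream of mir-52 and 1 more upstream of the cluster. The copies of CTCCGCCC are shown with 11 bases to each side and the motif in capitals, at chrIV:14033539-14033568 on the plus strand and chrX:13145384-13145413 on the minus strand.
copy upstream of mir-52: gacaccaatctCTCCGCCCcgtctcttccc
copy upstream of mir-54: cgaggaaaaatCTCCGCCCctaaacgtaca

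The copy upstream of mir-52 starts 458 bp before the hairpin and 485 bp from the nearest pooled summit. The copy upstream of mir-54 starts 308 bp before that hairpin and 137 bp from the summit of the upstream peak.

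Among microRNA genes the mir-51 and mir-52 peaks were the strongest in the pooled list. A pooled peak lay within 2000 bp of 181 of the 255 genes outside the family, and for 0 of them did it outrank that of mir-51 or mir-52. For 13 it outranked that of mir-54. The median pooled rank was 304 over the members, which share peaks, and 5194 over the 181 others.

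**Figure D3:**
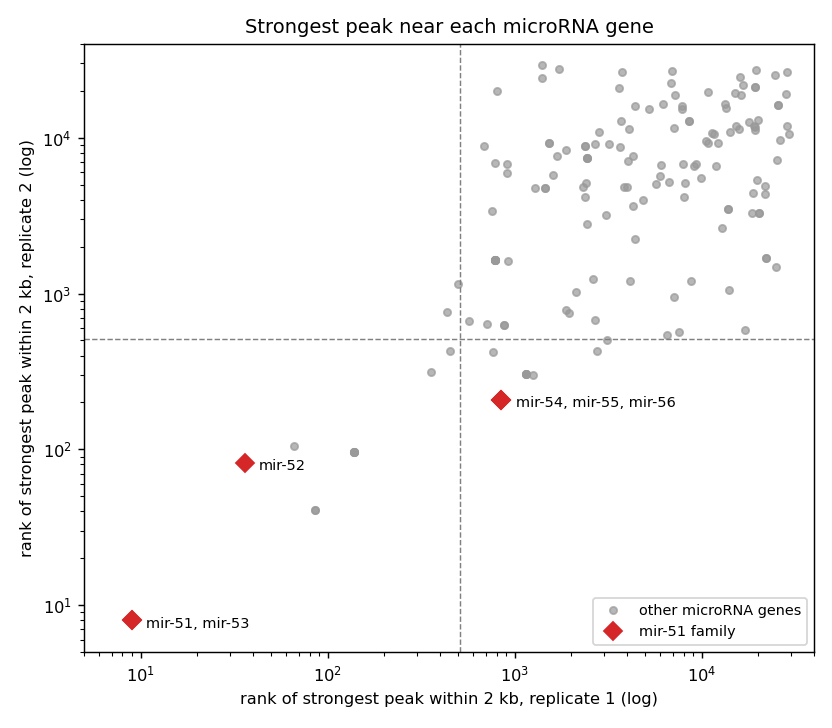
Rank of the strongest peak within 2000 bp of each microRNA gene with a peak in both replicates, replicate 1 on the horizontal and replicate 2 on the vertical axis, both on a log scale, with dashed lines at rank 512. Red diamonds are the family, where members that share peaks fall on 1 point, and grey circles are the other microRNA genes. mir-51 and mir-53 (9 and 8) stand nearest to the corner of strongest peaks, and mir-52 (36 and 82) lies among the next few.

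Other microRNA genes had their IDR peaks farther from the hairpin than mir-51 and mir-52. The 13 genes share 8 distinct peaks, of which 4 lay within 500 bp of a tRNA, snoRNA or snRNA gene, and the distance from the hairpin ran from 272 to 1984 bp with a median of 1370 bp. mir-1819 and mir-2212 share the peak of rank 60, which lies on such a gene. mir-237, of the lin-4 family of developmental timing, had the peak of rank 85, 30 bp from such a gene. mir-1018, mir-4921, mir-4923a, mir-4923b and mir-4925 share 1 peak of rank 118, again on such a gene. mir-235 (rank 324) had its peak 107 bp from such a gene, and mir-59 (rank 385) had its peak far from any. mir-1824, chosen after its values were seen, was the gene with an IDR peak within 500 bp, 272 bp from the hairpin (rank 475).

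**Figure D4:**
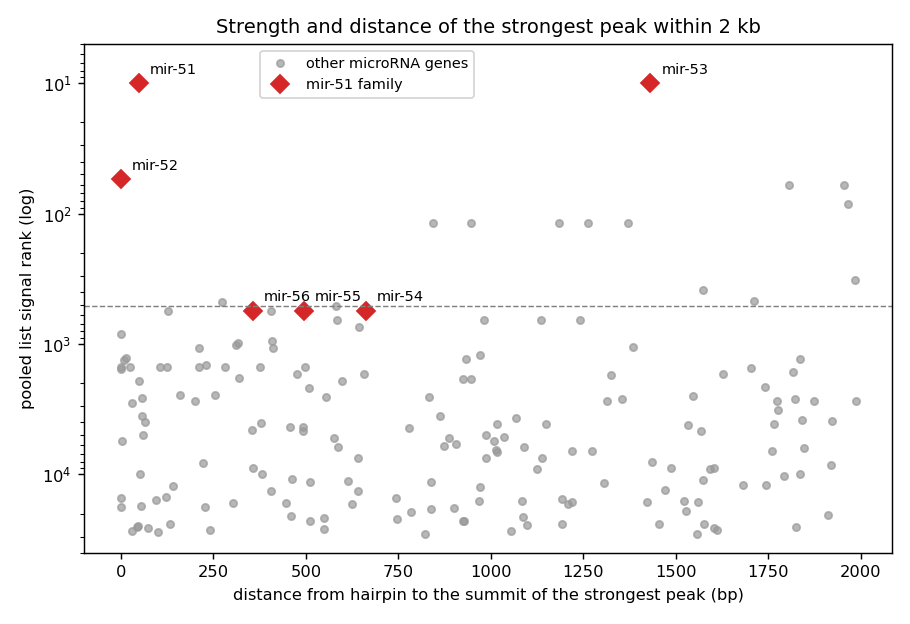
Distance in bp from the hairpin to the summit of the strongest pooled peak within 2000 bp (horizontal axis) and the rank of that peak in the pooled list (vertical axis, log scale, strongest on top) for each microRNA gene with such a peak. Red diamonds are the family, grey circles are other microRNA genes, and the dashed line is rank 512. mir-51 (49 bp) and mir-52 (0 bp) combine a high rank with a short distance, and the other genes above the line lie 272 bp or more away.

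Members of other well-known microRNA families had weaker peaks than mir-51 and mir-52. The mir-35 family, which also acts in the embryo, had pooled ranks of 1508, shared by mir-35 to mir-41, and 2749 for mir-42. Of the mir-58 family, mir-58.1 stood at 987, mir-81 at 1061, mir-82 at 2467 and mir-80 at 8944. The strongest peaks near mir-58.1 in the replicates had ranks of 437 and 759 but were different peaks. That of replicate 1 lay 424 bp past the hairpin's 5′ end, near the pooled summit (412 bp), and that of replicate 2 lay 458 bp before it. mir-58b and mir-58c, outside the list of names and added after their values were seen, had no pooled peak. In the let-7 family of developmental timing, let-7 itself stood at 5294, counted from its annotated primary transcript, mir-48 and mir-241 share a peak of rank 6148, and mir-84 had no pooled peak. lin-4 stood at 1829. let-7 and mir-58.1 were matched through their RefSeq names, since the Ensembl annotation names them otherwise.

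By their ranks in both replicates, the microRNA genes outside the family nearest to the member medians (442 and 145.5) were mir-235 (355 and 314), mir-55b (848 and 209) and mir-59 (453 and 431). No member stood at these medians, which lie between the places. The members' own ranks were 9 and 8 for mir-51 and mir-53, 36 and 82 for mir-52, and 848 and 209 for the cluster. For the cluster these were different peaks, the upstream one in replicate 1 and the downstream one in replicate 2. The measure was the summed absolute difference in log10 rank, which was 0.429, 0.44 and 0.482, over 154 genes with a peak in both replicates. mir-55b overlaps mir-55 and shares the peaks of the cluster.

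A list of 23 genes was examined, mostly genes that make or use microRNAs, with the developmental timing genes lin-28, lin-41 and hbl-1 and the target cdh-3 among them, and 22 were matched by name. IDR peaks lay within 2000 bp of the 5′ end of 3 of them, beside 2.77% of all protein-coding genes. alg-5, an Argonaute gene, had a peak 866 bp upstream with signal 154 (rank 191, and ranks 212 and 158 in the replicates). vig-1, of the RNA-induced silencing complex, had one 385 bp upstream with signal 101 (rank 394, and 232 and 826). ain-1, a GW182-type cofactor of Argonautes, had one 1901 bp upstream with signal 92.1 (rank 460, and 682 and 519).

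The other genes of the list had weaker peaks or none. xrn-2, an exonuclease that degrades mature microRNAs, was next at rank 628. The microprocessor genes pash-1 and drsh-1 stood at 1520 and 12869, the Argonaute genes alg-1 and alg-2 at 2299 and 6860, and the Dicer gene dcr-1 at 20192. cdh-3, the known target, stood at 12401. The remaining 11 genes with a pooled peak ranged from 1522 (pab-1, a poly(A)-binding protein gene) to 13547 (nhl-2, a cofactor of the silencing complex), and among them were the developmental timing genes lin-41 (4170), hbl-1 (4595) and lin-28 (5279). dcs-1, a decapping enzyme gene that also acts in microRNA decay, had no pooled peak. Over the whole list a pooled peak was near 21 of the 22 genes, with a median rank of 4553, beside 10180.5 over the 13268 of 19973 protein-coding genes with one. The mir-51 and mir-52 peaks ranked above all of those near genes of the list.

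The pooled peaks nearest to either side of the limit of 2000 bp were as follows. At mir-53 the outermost peak inside was that of mir-51, 1432 bp away (rank 10), so its IDR call depends on the window, and the next outside was 3967 bp away (rank 10269). At mir-52 the outermost pooled peak inside was 1208 bp away (rank 787) and the next outside was 20185 bp away (rank 160). At mir-51 these were 1797 bp (rank 4169) and 5546 bp (rank 10269), and at mir-54 they were 1678 bp (rank 15042) and 2253 bp (rank 12310).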

How the data were processed

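Peaks were called by the authors on each of the 2 replicates and on their pooled alignments against the same control, per the deposited file descriptions, and the IDR list was derived from these. The peak caller, aligner and IDR cutoff were not given in the sources used here. Control reads were not analysed here. The deposited lists give each peak a signal score of unstated scale and −log10 of a q-value. The 512 IDR peaks were all found in the pooled list. The build is ce11, per the labels. Chromatin was sheared to 200 to 800 bp, per the labels.

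Peaks were ranked by signal within each list, with summits at start plus offset and positions 1-based. Genes came from Ensembl release 115 and sequence from RefSeq, on the same assembly, and 0 peaks ended beyond a chromosome end. Replicate peaks belonged to a pooled site when they overlapped it by at least 1 bp. Motifs were sought on both strands within 100 bp of the summit. Members, lists and motifs were chosen with earlier results of these data known. Named genes were the members, genes within 2000 bp of them (the non-coding RNA genes at mir-52 as counts), up to 10 other microRNA genes by IDR signal, 3 genes of like ranks, 4 families and pathway genes. The counting steps were tested on simulated peaks. Python 3.11.15, numpy 2.4.6, pandas 2.3.3 and matplotlib 3.10.9 were used.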

Additional observations from a re-analysis of the deposited data

How the results depend on the processing

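The IDR count of members (3 of 6) was 2 or 3 with windows of 500, 1000 and 5000 bp, with peak overlap and in the stronger part of the list, and 2 with each peak given to its nearest member, an alternative chosen after seeing the data. It was 6 with pooled peaks of q-value under 0.05, a longer list, and 3 to 6 in the strongest 512 peaks of single replicates, the higher count from replicate 2 without replicate 1. The count in both replicates (3) was 2 within 500 and 1000 bp, 3 within 5000 bp and 6 with that q-value limit. Among other microRNA genes the share (5.10%) was 0.392% within 500 bp, 1.57% within 1000 bp, 10.2% within 5000 bp, 11% with the q-value limit, 4.71% to 7.45% in single replicates, and 1.72% (4 of 232) for genes with no tRNA, snoRNA or snRNA gene within 2000 bp. The median summit distance over members (426 bp) was 260 to 465 bp in single replicates, since replicate 1 placed the upstream peak of the chromosome X cluster first; the strongest peak of mir-54 moved from 761 bp past to 175 bp before its 5′ end, that of mir-55 from 591 bp past to 345 bp before, and that of mir-56 from 454 bp past to 482 bp before. With 200 bp to each side, 1 of the 5 summits had CTCCGCCC. The median rank over members (304) was 186.5 when ranked by q-value and 145.5 to 442 in single replicates, and the pathway count (3) was 2 to 4. In the ranking by q-value 369 pooled peaks tied at rank 1, those of mir-51 and mir-52 among them. The strongest peak of the cluster stood at 372, so that median depends on the tie. No paired analysis was possible because there was 1 group. Depth is unknown, and 2 replicates of 1 strain give no measure of error on a rank beyond their difference.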
